A study of Mus musculus with 10 samples.

Results

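Respiratory complex I is described here through the 46 protein-coding genes, of 55573 genes in the count table, whose symbols begin with Ndufa, Ndufb, Ndufc, Ndufs, Ndufv or Ndufaf in the mouse build GRCm38. By role, 36 of them encode structural subunits of the complex and 8, the Ndufaf genes, encode assembly factors, which help to build it and are absent from the finished enzyme. The other 2 carry the name but are not complex I subunits: Ndufa4, now known as a subunit of complex IV, and its paralog Ndufa4l2. RNA was sequenced from bone marrow B-cells of mice with the genotype PAX5-ELN H2B-GFP, treated with doxycycline, with 35 days as the labelled time. There were 5 libraries of GFP high cells, labelled quiescent, and 5 of GFP low cells, labelled proliferating. PAX5-ELN is a leukemia fusion that joins PAX5, a B-lineage transcription factor, to elastin, and H2B-GFP is a fluorescent histone that is diluted as cells divide once its synthesis stops. Both groups carried the fusion, the reporter and the doxycycline treatment, so no group without them enters the comparison. The promoters that drive the fusion and the reporter, and whether libraries came from separate animals, are not given in the sources used here, and p-values therefore measure only the spread between these samples.

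Complex I is the entry point of the mitochondrial respiratory chain. It oxidises NADH in the matrix arm, passes the electrons along iron-sulfur clusters to ubiquinone, and pumps protons through its membrane arm. The N module binds NADH, the Q module reduces ubiquinone, and the proximal and distal parts of the membrane arm hold the pumps. Core subunits carry out the chemistry and are shared with bacteria, while accessory subunits surround them. The membrane core is encoded by mitochondrial DNA, and all 7 of those genes (mt-Nd), like the 37 genes of mitochondrial DNA as a whole, had no counts in any library, so only the nuclear share of the complex is described.

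Total counts were 11347097 to 13838769 per GFP high library, against 10640894 to 14858520 per GFP low library. The labelled cell type was checked with 7 B progenitor markers, which summed to 11351 to 13054 CPM (counts scaled to a common library size) in GFP high and 8681 to 9675 CPM in GFP low. All 6 proliferation markers were lower in GFP high, where they summed to 1235 to 1732 CPM, against 2680 to 3448 CPM in GFP low. Markers of other cell types were low beside the B progenitor markers: T cell markers summed to 0.349 to 1.25 against 0 to 0.872 CPM, NK cell markers to 187 to 327 against 63.1 to 166 CPM, neutrophil markers to 3.58 to 9.26 against 2.81 to 6.5 CPM, monocyte and macrophage markers to 79.2 to 124 against 44.7 to 87.3 CPM, erythroid markers to 11.7 to 35.4 against 5.33 to 17.4 CPM, and plasma cell markers to 622 to 1095 against 509 to 805 CPM. By edgeR 3 of 7 B progenitor and 2 of 5 plasma cell markers were higher in GFP high. So were 1 of 2 tested NK cell, 2 of 4 tested monocyte and macrophage and 1 of 2 tested erythroid markers. Over all tested genes 12% were higher and 15.4% lower. With the replicate number as a block, 7 of 7 B progenitor, 4 of 5 plasma cell and 4 of 4 tested monocyte and macrophage markers were higher. In that fit 1 each of the tested neutrophil, NK cell and erythroid markers was higher too. The same fit called 20.7% of tested genes higher and 21% lower. The plasma cell marker Jchain was lower, at 0.629 ± 0.408 CPM in GFP high, against 56.7 ± 23.4 CPM in GFP low (± SD over 5 libraries). The plasma cell sum was mostly Irf4 (mean 545 CPM in GFP high, 386 CPM in GFP low) and Xbp1 (239 and 180 CPM), so it does not follow Jchain. The T cell marker Cd8a and the NK cell marker Gzma had 0 counts in all libraries, and the NK cell sum was mostly Klrb1c (274 ± 62.8 CPM in GFP high, against 107 ± 43.4 CPM in GFP low, ± SD over 5 libraries). Their part in the results, and that of the proliferation difference, was not tested. Both libraries numbered 3 stood apart by their Y-linked counts, 9 in GFP high and 2 in GFP low, against 309 to 2654 in the other 8 libraries. Libraries 1 to 3 and libraries 4 and 5 also formed separate sets by expression.

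The 46 genes lie on 17 chromosomes, with 2 genes on X, so they do not form a gene cluster. Many share a start region with another gene: 21 of the 46 (45.7%) have the start of a protein-coding gene on the opposite strand within 1000 bases of their own, against 10.8% of all protein-coding genes in the table. The latter share covers 21980 genes, with or without counts, and was not computed for tested genes alone. Promoter windows of 300 bases (250 before and 50 after the start, RefSeq, GRCm38.p6) were at hand for 40 members, 32 of them subunits and 7 assembly factors. They were searched on both strands for 5 short motifs, 1 of them in a longer form too. The core of the motif of NRF1, a transcription factor of nuclear genes for mitochondrial proteins, was spelled as GCGCA and GCGC with any 1 base between them, and stood in 7 of 32 subunit windows (21.9%) and in 2 of 7 assembly factor windows. Over all 27025 windows the share was 4.8%, and over the 9115 windows of tested genes it was 11.4%. The YY1 core AAGATGG stood in 7 subunit windows (21.9%) and 1 assembly factor window, against 6.4% of all windows and 7.6% of those of tested genes. With CGG added at its end it stood in 4 subunit windows (12.5%) and the same assembly factor window, Ndufaf8, against 0.9% and 2.4%. The shorter form was added after the values of the longer one had been seen. The ETS core CCGGAAG stood in 4 subunit windows (12.5%) and 2 assembly factor windows, against 9.2% of all windows and 20.3% of those of tested genes. The SP core GGGCGG stood in 15 subunit windows (46.9%) and 6 assembly factor windows, against 36% and 65.3%, and the E-box CACGTG in 2 subunit windows (6.2%) and 0 assembly factor windows, against 7.2% and 10.5%. A GGGCGG or CACGTG match can overlap another motif, and a match is only a run of letters, not a measured binding site.

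Upstream sequences are shown for the 4 genes whose NRF1 core lay before the annotated gene, because such a match stood upstream of both kinds of gene, 3 subunit genes of the membrane arm and the assembly factor gene Ndufaf4. Capitals mark the NRF1 core, and each sequence runs 5′ to 3′ on the gene's strand and ends at the annotated gene or at the RefSeq start, whichever comes first.
Ndufb4, chr16:37654454-37654618, minus strand: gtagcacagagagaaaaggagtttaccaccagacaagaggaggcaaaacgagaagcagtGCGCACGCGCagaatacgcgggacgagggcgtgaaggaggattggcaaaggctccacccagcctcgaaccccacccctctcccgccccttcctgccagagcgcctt
Ndufs5, chr4:123718203-123718436, minus strand: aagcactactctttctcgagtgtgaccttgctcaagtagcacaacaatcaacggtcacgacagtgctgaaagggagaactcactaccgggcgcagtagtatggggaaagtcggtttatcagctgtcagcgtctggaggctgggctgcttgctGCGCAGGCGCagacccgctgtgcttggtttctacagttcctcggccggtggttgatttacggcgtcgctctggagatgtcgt
Ndufa11, chr17:56717512-56717761, plus strand: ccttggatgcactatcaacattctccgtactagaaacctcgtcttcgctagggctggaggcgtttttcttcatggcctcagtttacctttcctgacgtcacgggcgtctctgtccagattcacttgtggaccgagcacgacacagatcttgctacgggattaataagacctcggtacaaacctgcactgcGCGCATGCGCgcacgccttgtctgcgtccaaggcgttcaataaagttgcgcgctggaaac
Ndufaf4, chr4:24897833-24898082, plus strand: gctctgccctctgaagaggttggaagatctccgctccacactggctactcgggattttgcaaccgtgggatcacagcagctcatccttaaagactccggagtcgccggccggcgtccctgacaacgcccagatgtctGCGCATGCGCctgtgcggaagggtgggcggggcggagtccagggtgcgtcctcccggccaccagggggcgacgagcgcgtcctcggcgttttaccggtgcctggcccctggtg

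The comparison asked whether quiescent and proliferating pre-leukemic B-cell progenitors differed in the transcripts of complex I. Structural subunit transcripts were lower in GFP high cells in every part of the complex. Of 36 subunit genes, all tested, 32 fell and 0 rose at a Benjamini-Hochberg adjusted p under 0.05 in edgeR's quasi-likelihood fit, against a background of 15.4% of the 12772 tested genes that were lower and 12% that were higher, 27.5% in all. The log2 fold changes, GFP high over GFP low throughout, were below 0 for all 36 subunits, as they were for 47.1% of tested genes. They ran from -0.80 to -0.09 with a median of -0.49, and the median of all tested genes was 0.03. Subunits had a median standard error (SE) of 0.10, against 0.16 over all tested genes. The part of this in the share called was not tested. DESeq2 called 31 subunits lower and 0 higher, and none was higher at an unadjusted p under 0.05 by either tool. For 25 of the 36 subunits every GFP high library lay below every GFP low library, which held for 12.6% of tested genes. With the replicate number as a block 34 subunits fell, against 21% of tested genes lower, 20.7% higher and 41.8% in all.

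**Figure D1:**
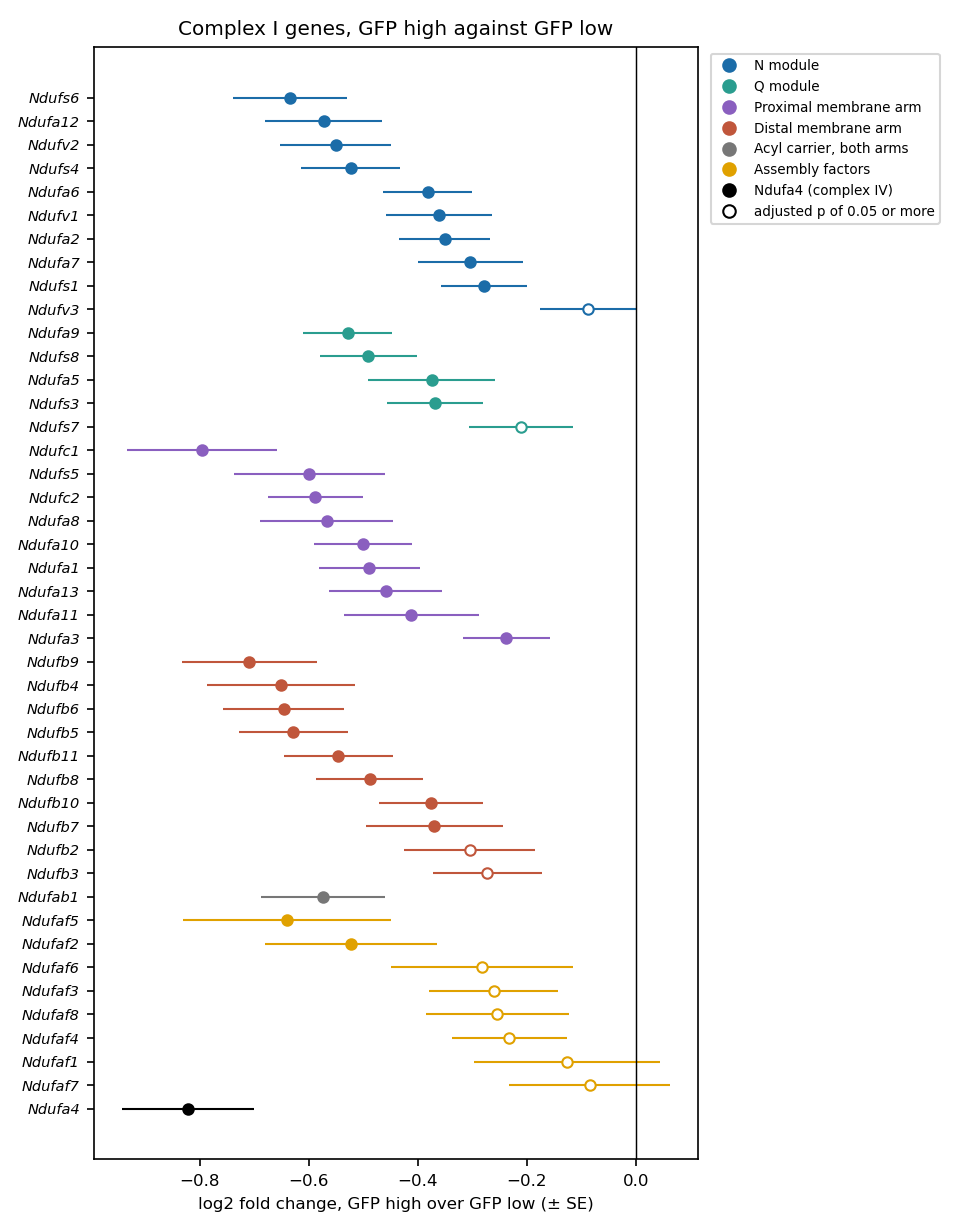
Log2 fold change of tested complex I genes, with 35 of the 36 subunits drawn, and of Ndufa4, GFP high over GFP low, with its SE (bars), coloured by the part of the complex. Filled points passed an adjusted p of 0.05; the subunits all lie below 0, from -0.80 to -0.09, and the filled assembly factors are Ndufaf5 and Ndufaf2.

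The 36 subunits summed to 2896 ± 320 CPM in GFP high, against 3987 ± 156 CPM in GFP low (± SD over 5 libraries), a difference of -27.4%. The libraries were not equally far apart. In GFP high libraries 1 to 4, 35, 36, 36 and 36 subunits lay below their own mean over the 10 libraries, and in GFP high library 5 this held for 16. In GFP low libraries 1 to 5 it held for 4, 1, 0, 1 and 1. GFP high library 5 was therefore the nearest to the GFP low libraries, though its subunit sum was still below each of theirs. In bulk RNA, fewer cells with a high level and a lower level in each cell cannot be told apart.

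**Figure D2:**
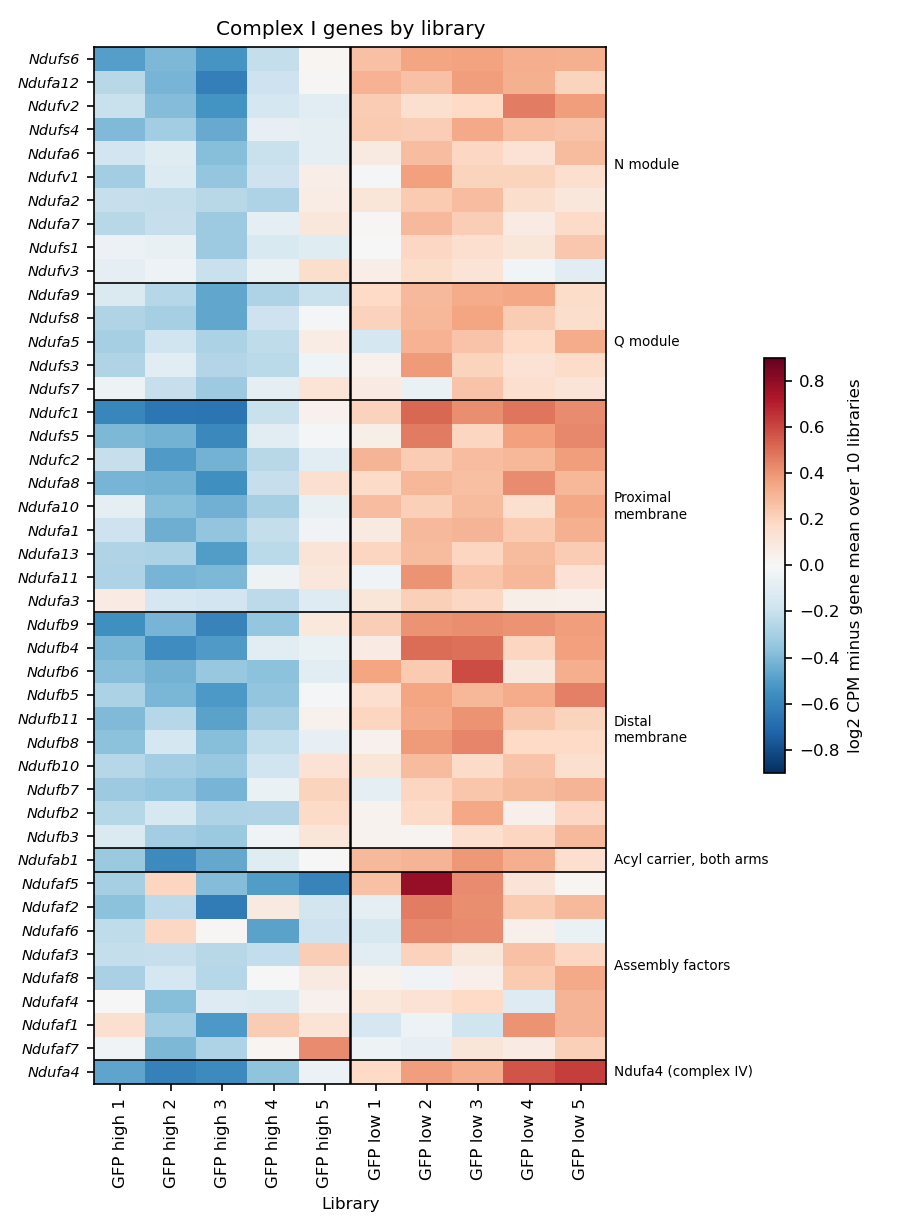
Each row is a gene and each column a library; colour gives log2 CPM minus the gene's mean over the 10 libraries. GFP high libraries 1 to 4 are below the mean for 35 or 36 of the 36 subunits, and GFP high library 5 for 16; 35 of the 36 are drawn.

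The core subunits of the N module, where NADH is oxidised, all fell. Ndufv2, which carries an iron-sulfur cluster next to the flavin site, had 159, 140, 126, 164 and 172 CPM in GFP high, against 215, 203, 207, 252 and 238 CPM in GFP low. The log2 fold change was -0.55 ± 0.10 (SE, adjusted p = 0.00177), with no overlap between the groups. Ndufv1, which binds NADH and the flavin, had 110, 126, 108, 121 and 143 CPM in GFP high, against 136, 177, 158, 157 and 152 CPM in GFP low. Here GFP high library 5 reached into the GFP low range, and the log2 fold change was -0.36 ± 0.10 (edgeR adjusted p = 0.0154). Ndufs1, the large core subunit that carries several iron-sulfur clusters, had 132, 130, 109, 124 and 127 CPM in GFP high, against 137, 156, 152, 148 and 162 CPM in GFP low. The groups were apart by a small margin, and its log2 fold change of -0.28 ± 0.08 (edgeR adjusted p = 0.0206) did not pass when GFP high library 3 was left out (-0.24, adjusted p = 0.0556), nor when GFP low library 5 was (-0.24, adjusted p = 0.058), nor in libraries 1 to 3 alone (-0.24, adjusted p = 0.139).

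In the core of the Q module, which hands electrons to ubiquinone, Ndufs8, an iron-sulfur subunit, had 132, 129, 115, 140 and 157 CPM in GFP high, against 183, 195, 203, 186 and 177 CPM in GFP low (log2 fold change -0.49 ± 0.09, edgeR adjusted p = 0.00161). Its groups were fully apart. Ndufs3 averaged 60.4 ± 4.46 CPM in GFP high, against 77.9 ± 7.08 CPM in GFP low (± SD over 5 libraries), with a log2 fold change of -0.37 ± 0.09 (edgeR adjusted p = 0.00811). Ndufs7, which carries the last cluster before the quinone, had 76.8, 68.8, 63.3, 75.0 and 86.2 CPM in GFP high, against 83.4, 76.2, 94.6, 88.3 and 86.2 CPM in GFP low. Its groups overlapped, and the log2 fold change of -0.21 ± 0.10 did not pass (edgeR adjusted p = 0.124).

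Among accessory subunits 26 of 29 fell, with a median log2 fold change of -0.50, beside -0.37 for the 7 core subunits. The 4 largest falls were in the membrane arm. Ndufc1 (ENSMUSG00000037152, chromosome 3, 51404677 to 51408988), an accessory subunit of the proximal membrane arm, had 67.7, 64.7, 64.3, 88.5 and 104 CPM in GFP high, against 117, 146, 136, 142 and 136 CPM in GFP low. GFP high libraries 4 and 5 were the nearest to GFP low, the groups did not overlap, and the log2 fold change was -0.80 ± 0.14 (edgeR adjusted p = 0.00115). Ndufb9, a distal subunit that binds the mitochondrial acyl carrier protein, had 43.9, 48.2, 42.4, 50.6 and 68.7 CPM in GFP high, against 75.1, 85.2, 86.0, 85.1 and 83.3 CPM in GFP low (-0.71 ± 0.12, edgeR adjusted p = 0.00125). The acyl carrier protein itself, Ndufab1, which sits in both arms of the complex, averaged 50.4 ± 8.48 CPM in GFP high, against 75.1 ± 4.48 CPM in GFP low (± SD over 5 libraries), with a log2 fold change of -0.57 ± 0.11 (edgeR adjusted p = 0.0026). Part of the exons of Ndufb9 (19.5%) overlap another annotated gene.

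Within the distal membrane arm, the largest falls after that of Ndufb9 were those of Ndufb4, Ndufb6 and Ndufb5. Others of this arm had smaller log2 fold changes, such as Ndufb10 (-0.38), Ndufb7 (-0.37) and Ndufb3 (-0.27). Ndufb4, whose upstream sequence is shown above, had 23.6, 21.4, 22, 29.3 and 30.1 CPM in GFP high and 33.1, 44.5, 44.3, 35.9 and 40.6 CPM in GFP low, with groups apart (log2 fold change -0.65 ± 0.14, edgeR adjusted p = 0.00365). Ndufb6 averaged 31.5 ± 3.0 CPM in GFP high, against 49.3 ± 6.20 CPM in GFP low (-0.65 ± 0.11, edgeR adjusted p = 0.00114). Ndufb5 averaged 71.9 ± 9.68 CPM in GFP high, against 111 ± 8.33 CPM in GFP low (-0.63 ± 0.10, edgeR adjusted p = 0.000688). In the N module the largest fall was that of Ndufs6, a zinc-binding subunit added late in assembly, with 56.8, 60.5, 55.5, 69.1 and 81.2 CPM in GFP high and 96.2, 102, 103, 100 and 99.8 CPM in GFP low (-0.64 ± 0.11, edgeR adjusted p = 0.000892). The GFP low libraries were close together for this gene, and every GFP high library was below them. For Ndufb6, 39.0% of the exon length overlaps a gene on the opposite strand.

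The other 17 accessory subunits all fell as well, by log2 fold changes between -0.60 (Ndufs5) and -0.35 (Ndufa2), and for 13 of them the groups were apart. The values of 4 of them are given, chosen after they were seen. Ndufc2, the partner of Ndufc1 in the proximal membrane arm, had 105, 85.3, 90.2, 102 and 113 CPM in GFP high, against 150, 142, 147, 150 and 157 CPM in GFP low (-0.59 ± 0.09, edgeR adjusted p = 0.000423). Ndufa9, which binds a nucleotide cofactor in the Q module, had 144, 132, 114, 130 and 137 CPM in GFP high, against 178, 193, 198, 200 and 176 CPM in GFP low (-0.53 ± 0.08, edgeR adjusted p = 0.000554). In both genes the gap between the groups was wider than the spread within either. Ndufs5, a proximal subunit whose upstream sequence is shown above, averaged 19.9 ± 3.34 CPM in GFP high, against 30.1 ± 3.54 CPM in GFP low (± SD over 5 libraries), with a log2 fold change of -0.60 ± 0.14 (edgeR adjusted p = 0.00703). Ndufa11, also proximal and also shown above, averaged 47.3 ± 7.74 CPM in GFP high, against 62.9 ± 7.29 CPM in GFP low (-0.41 ± 0.12, edgeR adjusted p = 0.0266). Its groups overlapped, and its call was lost without GFP high library 1, 2 or 3 and without GFP low library 2, 3 or 4 (adjusted p up to 0.0731).

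By part of the complex, 9 of 10 subunits of the N module fell (median log2 fold change -0.37), 5 of 6 of the Q module (-0.42), 9 of 9 of the proximal membrane arm (-0.50) and 8 of 10 of the distal membrane arm (-0.52). The parts overlapped widely in their ranges, and the differences between them were not tested. The 4 subunits that did not pass were Ndufs7, Ndufv3, Ndufb2 and Ndufb3. Ndufv3, a small accessory subunit of the N module, had 64.0, 65.7, 59.2, 65.2 and 75.9 CPM in GFP high, against 70.7, 76.0, 73.9, 66.6 and 63.7 CPM in GFP low. Its groups overlapped in both directions and its log2 fold change was -0.09 ± 0.09 (edgeR adjusted p = 0.492). It turned to 0.10 in libraries 4 and 5 alone (adjusted p = 0.606). The distal subunits Ndufb3 (-0.27 ± 0.10, edgeR adjusted p = 0.0598) and Ndufb2 (-0.31 ± 0.12, edgeR adjusted p = 0.0779) were lower in 5 of 5 same-numbered pairs and with the replicate block both passed, Ndufb3 with an adjusted p = 0.00651 and Ndufb2 with an adjusted p = 0.0367.

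Among accessory subunits, the smallest falls that passed were those of Ndufa3, a proximal membrane subunit, and Ndufa7, an N module subunit. Ndufa3 had 113, 96.7, 95.1, 91.3 and 99.0 CPM in GFP high, against 116, 124, 122, 111 and 111 CPM in GFP low, so that GFP high library 1 lay within the GFP low range (log2 fold change -0.24 ± 0.08, edgeR adjusted p = 0.0424). It passed in only 1 of the 10 fits that left out a library, the one without GFP high library 1, and its adjusted p reached 0.114 without GFP high library 2. Ndufa7 averaged 81.7 ± 9.75 CPM in GFP high, against 101 ± 7.92 CPM in GFP low (-0.30 ± 0.10, edgeR adjusted p = 0.0331). It passed in 4 of those 10 fits, with adjusted p up to 0.0852, and was lost without GFP high library 1, 2 or 3 and without GFP low library 2, 3 or 5. Over all subunits, 26 passed in all 10 fits that left out a library. The 6 called subunits that did not were Ndufa3, Ndufa5, Ndufa7, Ndufa11, Ndufb7 and Ndufs1, of which Ndufa5 and Ndufb7 each passed in 2 of those fits (adjusted p up to 0.0845 and 0.115).

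Of the 8 assembly factors, 2 fell, 0 rose and 6 did not pass, and none had groups apart. Over all tested genes 15.4% were lower and 12.6% had every GFP high library below every GFP low library, so counts this small do not set 8 genes apart from the rest. All 8 log2 fold changes were below 0, with a median of -0.26 and a range from -0.64 to -0.09. Over all tested genes 47.1% were below 0, and the median was 0.03. At an unadjusted p under 0.05, 4 of the 8 were lower by edgeR and 2 by DESeq2. The edgeR count was also 2 with RLE scaling, by library size only and without the filter on low counts, 5 with the replicate block, and 2 to 4 with 1 library left out. The share of all tested genes at that unadjusted threshold was not computed, so these unadjusted counts have no background beside them. DESeq2 called 2 lower after adjustment. Ndufaf5 (ENSMUSG00000027384, chromosome 2, 140170649 to 140203689), which hydroxylates an arginine of Ndufs7 during assembly, had 13.6, 19.1, 12.8, 11.8 and 11 CPM in GFP high, against 20.0, 28.7, 22.5, 18.1 and 16.9 CPM in GFP low. GFP high library 2 lay inside the GFP low range, although each GFP high library was below the GFP low library of its number. Its log2 fold change was -0.64 ± 0.19 (edgeR adjusted p = 0.0253) and ran from -0.77 to -0.50 with 1 library left out. The call was lost without GFP high library 1, 3, 4 or 5 or GFP low library 2 or 3, with adjusted p between 0.0569 and 0.0768.

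Ndufaf2 (ENSMUSG00000068184, chromosome 13, 108002715 to 108158623), a paralog of the subunit Ndufa12 that acts late in assembly, had 13.7, 15, 11.4, 18.7 and 15.8 CPM in GFP high and 16.7, 24.4, 23.6, 20.8 and 21.6 CPM in GFP low. GFP high library 4 lay above GFP low library 1, and the log2 fold change was -0.52 ± 0.16 (edgeR adjusted p = 0.0273). That call was lost without GFP high library 1, 2 or 3 or GFP low library 2, 3 or 5 (adjusted p between 0.0502 and 0.0665), and without the filter on low counts (adjusted p = 0.0658). Of its exon length 65.6% lies opposite the antisense gene B230220B15Rik, and without a stated strand of counting the reads of both genes cannot be told apart.

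The other 6 assembly factors had smaller differences. Ndufaf3 and Ndufaf4 act together on the Q module. Ndufaf4, whose upstream sequence is shown above, averaged 45.6 ± 5.0 CPM in GFP high, against 53.6 ± 5.52 CPM in GFP low (± SD over 5 libraries), with a log2 fold change of -0.23 ± 0.11 (edgeR adjusted p = 0.125). Ndufaf3 averaged 35.3 ± 5.3 CPM in GFP high, against 42.3 ± 3.95 CPM in GFP low (-0.26 ± 0.12, edgeR adjusted p = 0.121). For Ndufaf3 a single library decided the call: it passed without GFP high library 5 (-0.35, edgeR adjusted p = 0.0318), whose 44.8 CPM stood above the 32.3 to 33.3 CPM of the other GFP high libraries. Ndufaf8, the partner of Ndufaf5, averaged 16.4 ± 1.85 CPM in GFP high, against 19.5 ± 2.17 CPM in GFP low (-0.25 ± 0.13, edgeR adjusted p = 0.173). Ndufaf6, an early factor, had 16.2, 21.5, 19.1, 13.6 and 16.6 CPM in GFP high, against 17.1, 25.6, 25.5, 19.5 and 18.1 CPM in GFP low (-0.28 ± 0.17, edgeR adjusted p = 0.232).

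The smallest differences were those of Ndufaf1 and Ndufaf7. Ndufaf1, part of the complex that assembles the proximal membrane arm, had 38.0, 27.8, 24.1, 40.3 and 37.6 CPM in GFP high, against 31.0, 33.4, 30.4, 45.7 and 42.6 CPM in GFP low (log2 fold change -0.13 ± 0.17, edgeR adjusted p = 0.626). Ndufaf7, a methyltransferase, had 31.8, 24.6, 26.9, 32.9 and 43.7 CPM in GFP high, against 31.5, 31.0, 35.1, 34.2 and 37.8 CPM in GFP low. GFP high library 5 was the highest of all 10 libraries for Ndufaf7, and the log2 fold change of -0.09 ± 0.15 did not pass (edgeR adjusted p = 0.711). Its sign turned without GFP high library 2 (0.01, adjusted p = 0.961) and in libraries 4 and 5 alone (0.07, adjusted p = 0.805).

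Set side by side in each library, subunit transcripts were lower relative to assembly factor transcripts in GFP high. The mean log2 CPM of the 36 subunits was 6.18 ± 0.16 in GFP high, against 6.65 ± 0.07 in GFP low, and that of the 8 assembly factors was 4.56 ± 0.10 in GFP high, against 4.86 ± 0.10 in GFP low (± SD over 5 libraries). The subunit mean minus the assembly factor mean was 1.58, 1.55, 1.59, 1.64 and 1.72 in GFP high libraries 1 to 5, against 1.84, 1.75, 1.80, 1.78 and 1.74 in GFP low libraries 1 to 5. Every GFP high value was below every GFP low value, library 5 by the smallest margin. The means were 1.62 ± 0.07 in GFP high and 1.78 ± 0.04 in GFP low, a difference of -0.17 on the log2 scale that lay between -0.19 and -0.15 with 1 library left out. It is given without a p, since the genes were grouped with results of these libraries known. The 8 assembly factors summed to 209 ± 19.9 CPM in GFP high, against 250 ± 15.9 CPM in GFP low, a difference of -16.4% beside the -27.4% of the subunit sum.

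**Figure D3:**
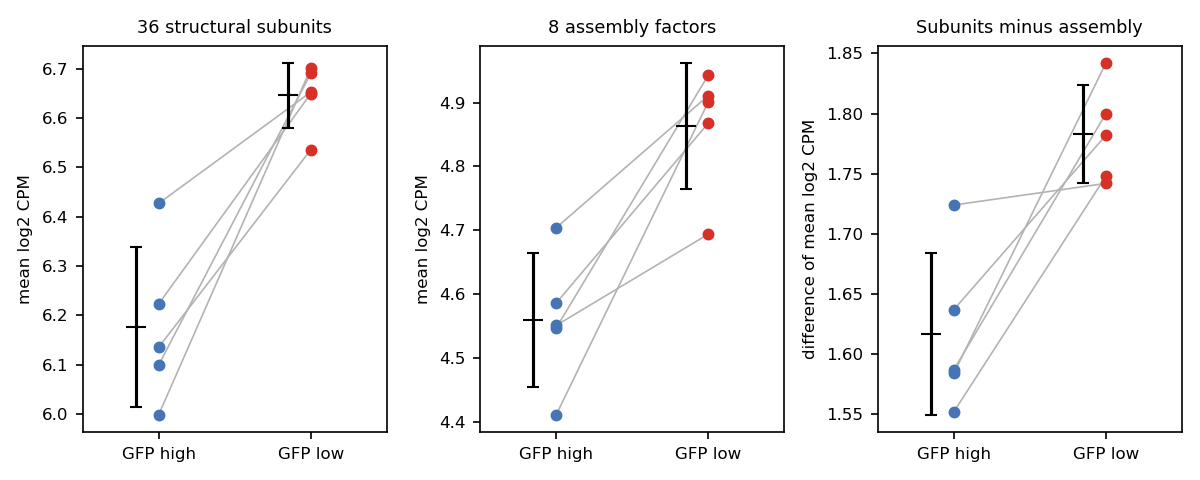
Mean log2 CPM of the 36 subunits (left) and 8 assembly factors (middle) and their difference (right) in each library, GFP high left of GFP low; black bars are the mean and SD of 5 libraries and grey lines join libraries of the same number. The difference is lower in GFP high in all 5 pairs, by least for library 5 (1.72 against 1.74), and the axes do not start at 0.

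Assembly factor transcripts were less abundant than those of subunits. Mean CPM over the 10 libraries had a median of 93.7 (range 25.0 to 188) for subunits and 26.1 (range 17.4 to 49.6) for assembly factors. Per kilobase of annotated exons the medians were 56.6 and 14.2 CPM, with Ndufa1 highest at 197 CPM per kilobase and Ndufb2 lowest among subunits at 5.24. The median SE of the log2 fold change was 0.10 for subunits and 0.15 for assembly factors. Within the assembly factors' range of CPM lay 5 subunits, Ndufa5, Ndufb2, Ndufb4, Ndufb6 and Ndufs5, of which 4 fell, with a median log2 fold change of -0.60. Of the 13 subunits whose SE was at least as large as the smallest SE of an assembly factor (0.11), 12 fell, with a median of -0.57. Both medians stand beside -0.49 over all 36 subunits and -0.26 over the 8 assembly factors. The SE reached 0.14 among subunits and 0.19 among assembly factors, so the 13 subunits do not match the assembly factors in SE. The part of the SE in the number of calls was not tested. The difference between subunits and assembly factors has no test of its own here.

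Within both sets of libraries the medians lay below 0. In libraries 1 to 3 alone, 30 subunits fell (median log2 fold change -0.54) and 1 assembly factor fell (-0.25). In libraries 4 and 5 alone, with 2 libraries a group, 18 subunits fell (-0.35, with 35 of 36 below 0) and 0 assembly factors passed (-0.25, with 1 lower at an unadjusted p under 0.05). Without both libraries numbered 3, 25 subunits fell (-0.42) and 0 assembly factors passed (-0.24, with 2 lower at an unadjusted p under 0.05, by edgeR throughout).

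Ndufa4 and Ndufa4l2, which carry the family name without belonging to the complex, were set apart from the subunits. Ndufa4 (ENSMUSG00000029632, chromosome 6, 11900292 to 11907497), the complex IV subunit, had 134, 123, 126, 145 and 180 CPM in GFP high, against 212, 242, 234, 277 and 288 CPM in GFP low. Its groups were well apart, and its log2 fold change of -0.82 ± 0.12 (edgeR adjusted p = 0.0004) was the largest fall of the 45 tested members. Ndufa4l2 had 2 counts in GFP low library 1 and 0 in the other 9 libraries, and was not tested. Outside the naming rule, Ndufb1-ps, which the annotation lists as a noncoding transcript, averaged 140 ± 18.2 CPM in GFP high, against 198 ± 15.4 CPM in GFP low (-0.50 ± 0.10, edgeR adjusted p = 0.00248). Other symbols outside the rule are 4 processed pseudogenes, and the sources used here do not say how reads shared with such copies were counted.

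Because so many members share their start region, the 18 tested genes that start head to head with a member were set beside it. Of these neighbours 3 fell, 1 rose and 14 did not pass, with a median log2 fold change of -0.06. The share that fell is near the 15.4% of all tested genes that were lower, while 12% of all tested genes were higher. Mrpl47, a mitochondrial ribosomal protein gene next to Ndufb5, averaged 21.3 ± 4.07 CPM in GFP high, against 31.0 ± 3.86 CPM in GFP low (-0.54 ± 0.15, edgeR adjusted p = 0.0177). Rps28, a cytosolic ribosomal protein gene whose start lies 10 bases from that of Ndufa7, fell by 0.34 ± 0.12 on the log2 scale (edgeR adjusted p = 0.0493). Eef1b2, a translation elongation factor gene whose start lies 8 bases from that of Ndufs1, fell by 0.30 ± 0.09 (adjusted p = 0.0244). The neighbour that rose was Tepsin, next to Ndufaf8 (0.50 ± 0.17, edgeR adjusted p = 0.0406). With the replicate block Mrpl36, next to Ndufs6, and Rbm10, next to Ndufb11, also passed as lower (adjusted p = 0.0255 and 0.0111). Exons of Mrpl47 overlap 12.3% of the exon length of Ndufb5, and those of Rbm10 overlap 12.9% of that of Ndufb11. Eef1b2 and Mrpl36 also overlap exons of their members, Ndufs1 and Ndufs6. Without a stated strand of counting, the reads of such overlaps cannot be told apart. Phf14, next to Ndufa4, had a log2 fold change of 0.17 ± 0.14 (edgeR adjusted p = 0.378) beside the -0.82 of Ndufa4.

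**Figure D4:**
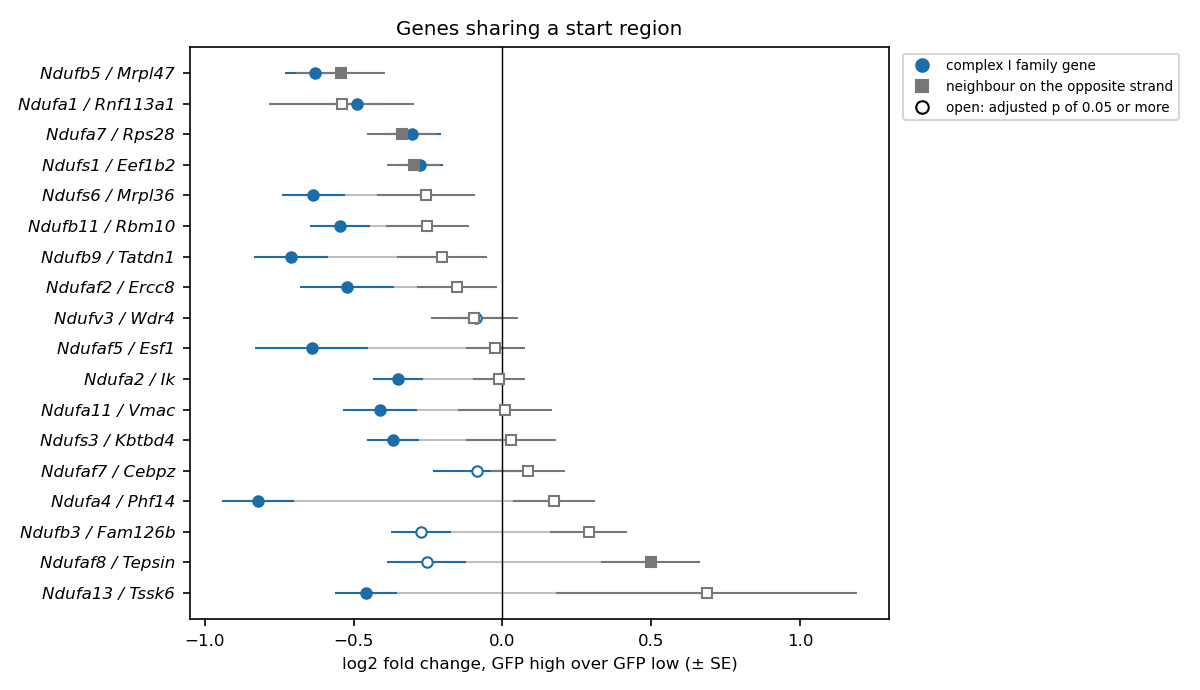
Log2 fold change, GFP high over GFP low, with SE, of members (circles) and of the tested gene that starts within 1000 bases on the opposite strand (squares); open symbols did not pass. Of 18 neighbours 3 fell and 1 rose, beside 15.4% lower and 12% higher over all tested genes, and their median is -0.06.

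Structural subunits of the other respiratory complexes fell as well, and in each complex most assembly factors did not pass the test. Of complex II subunits 3 of 4 fell (median log2 fold change -0.27), with Sdhb at -0.54 ± 0.13 (190 ± 33.5 CPM in GFP high, against 276 ± 32.0 CPM in GFP low, edgeR adjusted p = 0.00673). All 9 tested subunits of complex III fell (-0.52), among them Cyc1, its cytochrome c1, at -0.54 ± 0.08 (adjusted p = 0.000308). All 10 tested subunits of complex IV fell (-0.58), among them Cox6a1 at -0.64 ± 0.08 (adjusted p = 0.000167). Of complex V, the ATP synthase, 14 of 15 tested subunits fell (-0.56), with Atp5k at -0.78 ± 0.09 (adjusted p = 6.22e-05). The electron carrier cytochrome c, Cycs, averaged 71.8 ± 4.39 CPM in GFP high, against 105 ± 6.81 CPM in GFP low (-0.55 ± 0.08, edgeR adjusted p = 0.00029). Most subunits thus fell in all 5 complexes, beside 15.4% lower and 12% higher over all tested genes. No difference between the complexes was tested.

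Among 12 tested complex I assembly factors without the Ndufaf name, 2 fell and 10 did not pass (median log2 fold change -0.08), near the 15.4% of all tested genes that were lower. Dmac1, which helps to build the distal membrane arm, had 31.5, 33.5, 30.7, 40.7 and 49.4 CPM in GFP high and 53.4, 63.8, 60.8, 65.1 and 60.3 CPM in GFP low, with groups apart (-0.71 ± 0.13, edgeR adjusted p = 0.002). Acad9, which works with Ndufaf1 on the proximal arm, averaged 33.4 ± 2.99 CPM in GFP high, against 44.7 ± 2.36 CPM in GFP low (-0.42 ± 0.10, edgeR adjusted p = 0.00568) and was named after its values were seen. Of complex III assembly factors 2 of 6 fell (median -0.13), with Uqcc2 at -0.92 ± 0.13 (26.2 ± 4.76 CPM in GFP high, against 49.4 ± 3.93 CPM in GFP low, edgeR adjusted p = 0.000317). Of complex IV assembly factors 2 of 18 tested fell, with Pet100 at -0.53 ± 0.13 (adjusted p = 0.00797), and 1 rose (median -0.09), beside 15.4% lower and 12% higher over all tested genes. With the replicate block 5 of the 18 fell and 1 rose, beside 21% lower and 20.7% higher over all tested genes in that fit. None of 4 complex II and 2 complex V assembly factors passed by edgeR or DESeq2, and 0 did at an unadjusted p under 0.05. Those with the lowest p were Sdhaf3, at 12.4 ± 2.16 CPM in GFP high, against 14.8 ± 2.60 CPM in GFP low, and Atpaf2, at 53.7 ± 5.17 CPM in GFP high, against 59.1 ± 6.16 CPM in GFP low.

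**Figure D5:**
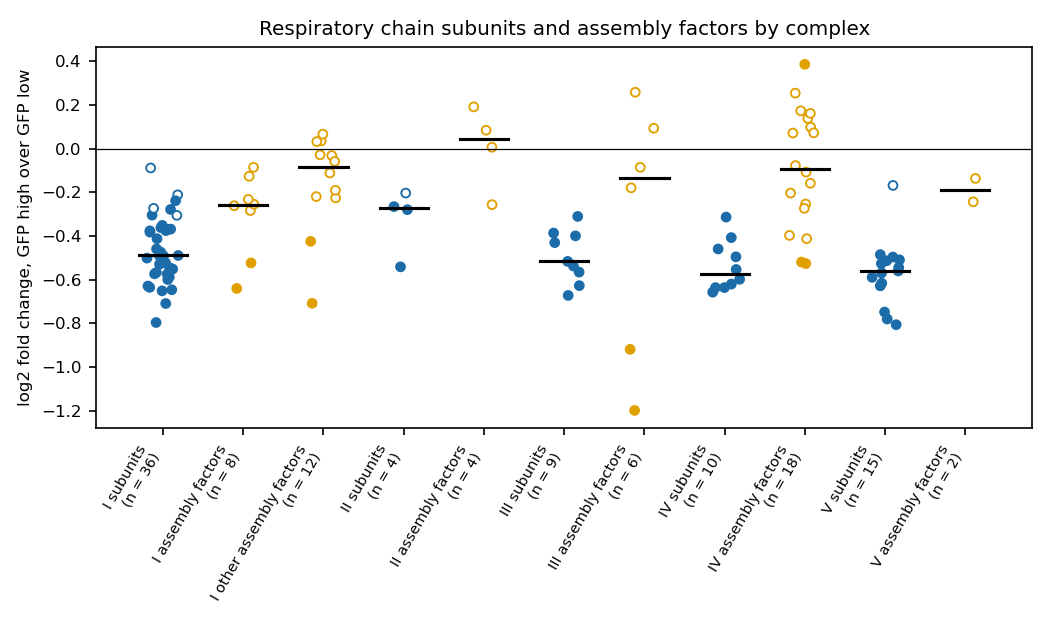
Log2 fold change, GFP high over GFP low, of each tested gene by respiratory complex, subunits beside assembly factors; filled points passed an adjusted p of 0.05, black lines are medians and the sideways spread of points carries no value. Subunit medians run from -0.58 to -0.27 and assembly factor medians from -0.26 to 0.05.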

How the data were processed

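Whole-number gene counts, not normalized, were deposited by the authors for 10 libraries of polyadenylated RNA amplified with SMART-Seq v4, per the labels' protocols. The submitters' processing notes list the build mm10 with STAR, featureCounts and DESeq2, without versions or roles. Strand use and the handling of reads with several matches are not given in the sources used here, so counts of overlapping genes and near-identical copies are uncertain. Symbols came from GENCODE M21, which is on GRCm38, and 55480 of 55573 identifiers matched. Groups and replicate numbers came from the titles.

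The test was the quasi-likelihood one of edgeR 4.0.16 (R 4.3.3), run with filterByExpr defaults, TMM scaling, glmQLFit and glmQLFTest without covariates, and Benjamini-Hochberg adjustment over 12772 genes with a threshold of 0.05. The SE is the log2 fold change divided by the root of the F statistic. Mean log2 CPM used a prior count of 2. The procedure was tested on simulated data. The common biological coefficient of variation was 0.249. No 2 libraries of a group agreed within sampling noise, the lowest chi-square per gene being 6.92. A floor of 3 counts was 0.203 to 0.291 CPM and covers counting error only.

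Same-numbered libraries deviated together from their group means (correlations 0.248 to 0.353 in 5 of 5 pairs, and up to 0.321 between other numbers). The labels do not say what a number marks, so the main fit left the numbers out and the replicate block was run as an alternative. Calls, adjusted p-values and SEs are those of the unpaired fit unless another is named. The block called 5333 genes, against 3511 in the main fit. Alternatives were DESeq2 1.42.0, other scaling, no filter, the replicate block and leaving out each library. Fits without both libraries numbered 3 and within libraries 1 to 3 or 4 and 5 were added after seeing the data. Named with values were all assembly factors, the core subunits except 1 that is not reported here, Ndufa4, Ndufa4l2, Ndufab1, the 6 accessory subunits with the largest and the 4 with the smallest fall, all subunits that did not pass, and the gene with the lowest p of each other list. The members and lists were chosen with earlier results of these data known.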

Additional observations from a re-analysis of the deposited data

Results flagged for a closer look

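Of 100 groups of 5 libraries examined for a library far from the other 4, 4 stood out (Dixon's critical value 0.71), and chance gives about 1 in 20 such groups. Ndufaf3 in GFP high had 44.8 CPM in library 5, against 33.3 CPM in the next highest and 32.3 CPM in the lowest, so that the gap was 0.919 of the range. Ndufb6 in GFP high had 36.7 CPM in library 5 and 31.0 CPM in the next (gap 0.759 of the range), and Ndufb2 in GFP high had 32.9 CPM in library 5 and 26.4 CPM in the next (0.735 of the range). Ndufb9 in GFP low had 75.1 CPM in library 1, below the next lowest at 83.3 CPM (0.756 of the range). In 3 of these 4 cases the library was GFP high library 5, which was also the GFP high library with the highest mean subunit level.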

How the results depend on the processing

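The count of genes past the threshold, 3511, became 5333 with the replicate block and 2293 without both libraries numbered 3, and was 2829 to 3419 with 1 library left out. The count of subunits, 32, was 18 in libraries 4 and 5 alone, a fit with fewer samples, and 26 to 33 with 1 library left out. With the replicate block 34 subunits passed, Ndufb2 and Ndufb3 in addition, and the block changed no other call among the 44 complex I genes. The count of Ndufaf assembly factors, 2, was 1 without the filter on low counts, 1 in libraries 1 to 3 alone, 0 in libraries 4 and 5 alone, 0 without both libraries numbered 3, and 0 to 2 with 1 library left out (0 without GFP high library 1 or 3 or GFP low library 2 or 3, where 2 were lower at an unadjusted p under 0.05 by edgeR). Genes of the other respiratory, assembly, biogenesis and mitochondrial ribosomal protein lists past the threshold numbered 94, 53 in libraries 4 and 5 alone and 77 to 95 with 1 library left out. The subunit level minus the assembly factor level, -0.166, was -0.193 to -0.150 with 1 library left out. Ndufaf7 turned to 0.012 without GFP high library 2 (-0.213 to 0.012 with 1 library left out) and to 0.070 in libraries 4 and 5 alone, and Ndufv3 to 0.098 in libraries 4 and 5 alone; the cause was not tested. Over 19 settings 17 of 36 subunits and 0 of 8 assembly factors passed in all, and 35 and 7 were below 0 in all. Scaling by library size only raised the median of all genes by 0.048. The median SE was 0.15 for assembly factors and 0.10 for subunits, and the part of depth in this was not tested.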

Other observations

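Among 12 regulators of mitochondrial transcription and biogenesis, 2 fell, 2 rose and 8 did not pass, near the 15.4% lower and 12% higher over all tested genes. Esrra, a nuclear receptor of mitochondrial genes, had 22.3, 20.1, 27.4, 21.3 and 23.4 CPM in GFP high, against 13.8, 11.8, 19.0, 14.3 and 16.8 CPM in GFP low, so that it was higher in every GFP high library (log2 fold change 0.60 ± 0.15, edgeR adjusted p = 0.011). The others were named after their values were seen: the coactivator gene Pprc1 rose (0.35 ± 0.11, edgeR adjusted p = 0.0356), while Gabpa, an ETS factor (-0.31 ± 0.09, adjusted p = 0.0242), and Nrf1 (-0.23 ± 0.08, adjusted p = 0.0469) fell.

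Of 77 tested mitochondrial ribosomal protein genes, 45 fell and 1 rose (median log2 fold change -0.39). Over all tested genes 15.4% were lower and 12% higher. Mrps18a fell by 0.74 ± 0.09 on the log2 scale (68.7 ± 4.46 CPM in GFP high, against 115 ± 11 CPM in GFP low, edgeR adjusted p = 7.78e-05). The member that rose, Mrpl37, had 161, 177, 165, 169 and 168 CPM in GFP high, against 108, 115, 121, 114 and 105 CPM in GFP low, with no overlap (0.57 ± 0.07, edgeR adjusted p = 0.000112). The complex IV assembly factor that rose was Sco1, a copper chaperone (0.39 ± 0.13, edgeR adjusted p = 0.0456), and the largest fall of any assembly factor examined was that of the complex III factor Lyrm7, at 2.69 ± 1.14 CPM in GFP high, against 6.18 ± 1.62 CPM in GFP low (-1.20 ± 0.33, edgeR adjusted p = 0.0182). Mrpl37, Sco1 and Lyrm7 were named after their values were seen.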
